A study of Homo sapiens with 10 samples.

Results

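Neural cultures at day 16 of differentiation were compared with the embryonic stem cells they were grown from. The 4 libraries labelled d16 and the 2 libraries labelled d0, chosen by their labels alone, make up 6 of the 10 libraries of the series. All came from H9, an established line of human embryonic stem cells. Per the labels, Ctrl cells were wild type and V1PAKI cells carried a genotype given as SOX1-OT V1 PAKI, an abbreviation the labels do not spell out. They also do not say whether that line was 1 clone. Each line had 1 library of stem cells (d0), 1 labelled d16D and 1 labelled d16V, the last pair described as neural precursor cells derived from the stem cells. Per the labels' protocols, colonies were lifted and grown in suspension as embryoid bodies, a neural medium followed at day 4, and the bodies were attached at day 7, after which rosettes of columnar neuroepithelium formed. An arm for ventral telencephalon also received Sonic hedgehog (Shh, 200 ng/ml) and SAG, which activates the same pathway (1.5 µM), between days 10 and 25. The labels name neither arm D nor arm V, and both d16 libraries of a line may come from cells grown together until day 10.

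Stem cells are held in the pluripotent state by the transcription factors POU5F1, NANOG and SOX2, with help from FGF and NODAL signals and a high level of the DNA methyltransferase DNMT3B. When those signals are withdrawn, human stem cells tend to form neuroepithelium of forebrain character, a polarised sheet that exchanges E-cadherin for N-cadherin and uses Notch signalling to hold back the birth of neurons. Sonic hedgehog then gives part of that sheet a ventral identity, marked by NKX2-1 and NKX2-2, while WNT and BMP signals favour dorsal identity.

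Levels are FPKM, fragments scaled to transcript length and to the fragments of the library, which allows genes to be compared within a library. FPKM summed to between 200509 and 213818 in the d16 libraries and to 229619 and 256270 at d0, and the number of reads behind a value is unknown. The d16 libraries stood apart from all 6 earlier libraries of the series in ways that cannot be told apart from time. Between 767 and 846 of their values were written with 7 to 9 decimals, against 38 to 65 in an earlier library. RN7SL2 and RN7SL1, the RNA of the signal recognition particle, stood at 1513 to 3446 and 853 to 2164 FPKM at d16, and at no more than 173 and 91.5 FPKM before. Mitochondrially encoded messages took 14.3 to 16.8% of summed FPKM at d16 and 23.4 to 24.2% at d0. Within d16, the V1PAKI d16D library had the highest summed FPKM of the endoderm, mesenchyme, trophoblast, mesoderm, neural crest and choroid plexus lists described below, and the V1PAKI d16V library the lowest. Ranges given below for libraries left out in turn cover the 5 libraries other than Ctrl d0.

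The labelled cell types were checked against their markers. In the sentences that follow, paired values are for Ctrl and then V1PAKI. POU5F1, the central pluripotency factor, stood at 326 and 385 FPKM at d0, 5.64 and 34.2 at d16D and 17.6 and 6.85 at d16V, so every d16 library lay well below both stem cell libraries without reaching 0. SOX1, a factor of early neural precursors, stood at 0 and 0.0485 FPKM at d0, 32.6 and 10.9 at d16D and 18.7 and 7.38 at d16V. PAX6, a factor of eye and cortex neuroepithelium named after its values were seen, stood at 0 and 0 FPKM at d0, 8.4 and 6.24 at d16D and 1.58 and 2.66 at d16V. NES and VIM, intermediate filaments of neural precursors, stood at 169 and 117 FPKM at d16D and 202 and 203 at d16V and at 199 and 152 FPKM at d16D and 215 and 157 at d16V, against 30.4 and 45.3 FPKM and 20.2 and 47.2 FPKM at d0. SOX1, NES and VIM lay above and POU5F1 below both d0 libraries in all 4 libraries described as neural precursors, while PAX6 was low in d16V. AFP, a secreted protein of yolk sac and liver, was also present at 226 and 1242 FPKM at d16D and 132 and 4.88 at d16V.

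Of 15165 genes that reached 1 FPKM in 2 or more of the 6 libraries, 2572 rose from d0 to d16 and 2637 fell. These are 17.0% and 17.4% of the genes tested (34.3% together), the background against which each list below is read. The change is the difference on log2(FPKM + 1) between d16 and d0 with line as a block, given with its standard error after ±, and a call needs an adjusted p below 0.05 in limma (Benjamini-Hochberg, across the whole table tested). The pseudocount of 1 makes this scale understate the change of low genes. Change came to at least 1 in size for 1251 of the risers and 1090 of the fallers, and the median over all genes tested was 0.07. A stricter group rose by at least 1 in every d16 library against the d0 library of its own line: 554 genes (3.65% of those tested), of which 533 were called. The matching group that fell held 585 genes (3.86%), of which 583 were called. Every d16 library lay above both d0 libraries for 30.5% of genes tested and below both for 28.1%.

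**Figure D1:**
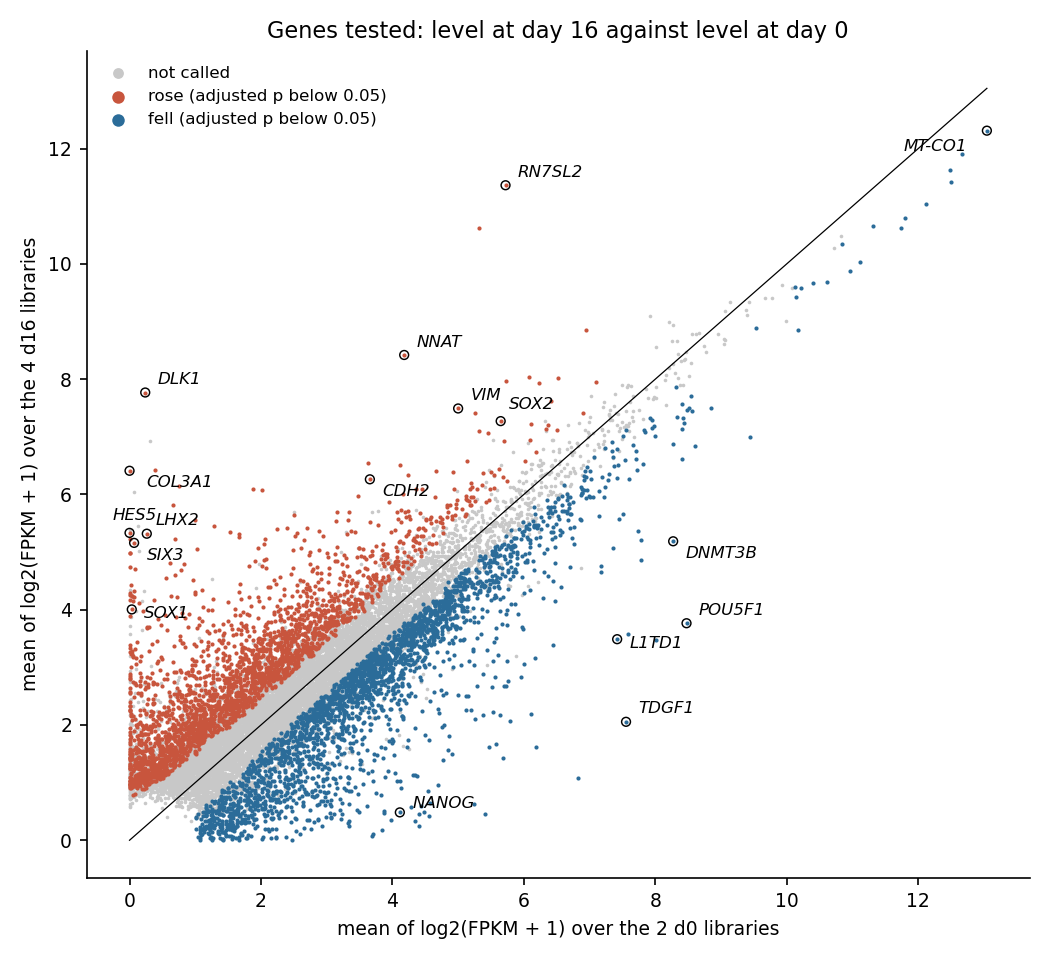
Mean level of each of the 15165 tested genes over the 4 d16 libraries (vertical axis) against the 2 d0 libraries (horizontal axis), both as log2(FPKM + 1), with 2572 genes that rose in red and 2637 that fell in blue. Stem cell genes such as POU5F1 and TDGF1 lie far below the line of equal level, and forebrain genes such as SIX3 and LHX2 lie at the left edge, near 0 at d0.

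With 1 library per line at d0 and 1 per line and arm at d16, the p-values do not measure the spread between repeated cultures. The constant difference between lines was removed by the block. What remains is the spread between arms and between the changes of the lines. A gene with unlike levels in the arms is therefore harder to call against d0. Leaving out Ctrl d0 ended every limma call (lowest adjusted p = 0.0584, with 4543 genes at an unadjusted p below 0.05), while leaving out V1PAKI d0, Ctrl d16D or Ctrl d16V left 1552, 1053 and 947 genes that rose and 952, 1263 and 1264 that fell. Without V1PAKI d16D the counts grew to 3483 and 3065, and 527 of the 533 and 583 of the 583 genes of the stricter groups were called again. These groups were chosen for a change of at least 1 in each of the remaining d16 libraries too, so that outcome was largely set by the choice. Fewer genes of both groups were called again without V1PAKI d0. The split of calls changed with the scaling setting: 49.4% of calls were rises here, 70.2% with TPM (median of all genes 0.36), 41.8% with median-of-ratios scaling (median -0.05) and 59.3% after scaling without mitochondrial and RN7SL genes (median 0.15), a setting chosen after seeing the data. With TPM the filter and pseudocount stayed at 1 on larger values, so 22358 genes were tested instead of 15165. The parts of scaling, gene set and pseudocount in the TPM values were not tested.

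The medians of the stricter groups lay between their d0 and d16 levels at d4 and d10. Over the 533 risers the median of log2(FPKM + 1) in Ctrl was 0.86 at d0, 1.48 at d4, 2.51 at d10, 3.47 at d16D and 3.33 at d16V, and in V1PAKI it was 1.01, 1.36, 2.28, 3.15 and 3.10. Over the 583 fallers it went from 3.41 through 3.08 and 2.33 to 1.19 and 1.46 in Ctrl, and from 3.49 through 3.10 and 2.26 to 1.64 and 1.28 in V1PAKI. The d0 and d16 ends of these lines were fixed by the choice of genes, and the d4 and d10 libraries, which the choice did not use, lay between them in both lines. The smallest fall of a faller was seen in V1PAKI d16D for 43.7% of the 583 genes, and the smallest rise of a riser in that library for 47.1% of the 533.

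**Figure D2:**
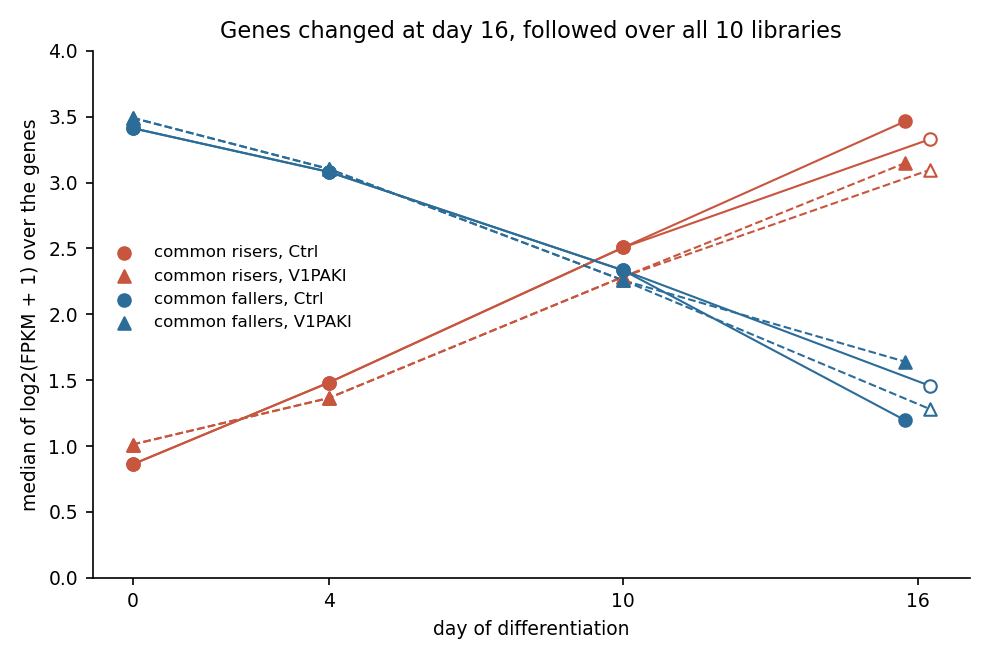
Median of log2(FPKM + 1) over the 533 genes that rose (red) and the 583 that fell (blue) by at least 1 in all 4 d16 libraries, against the day of differentiation, with circles for Ctrl, triangles for V1PAKI, filled symbols for d16D and open ones for d16V at day 16. The d4 and d10 medians lie between the d0 and d16 medians in both lines, at 2.51 and 2.28 for risers at d10.

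Most tested genes of the pluripotent state fell, and their list had the lowest median of the 41. The lists were chosen with earlier results of these data known, so counts and ranks of lists, here and below, may be partly set by that choice. Of 21 tested genes associated with the pluripotent state, 20 fell and the other, LIN28B, did not pass, with a median change of -2.63. Of 14 pluripotency factors tested, 7 fell and 2, SOX2 and OTX2, rose (median -1.72). With each library other than Ctrl d0 left out in turn, between 14 and 20 of the associated genes and between 4 and 9 of the factors fell. Bulk RNA cannot tell fewer cells of a type from less RNA per cell, here or below.

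POU5F1 fell by 4.71 on the log2 scale (-4.71 ± 0.69, adjusted p = 0.0085). TDGF1, the coreceptor through which NODAL acts, stood at 239 and 146 FPKM at d0, 1.17 and 13 at d16D and 4.34 and 0.835 at d16V (-5.50 ± 0.88, adjusted p = 0.0102). L1TD1, an RNA-binding protein of stem cells, stood at 183 and 158 FPKM at d0, 3.58 and 17.4 at d16D and 14.7 and 11 at d16V (-3.93 ± 0.54, adjusted p = 0.00762). In all 3 the V1PAKI d16D library was the highest of the d16 libraries and Ctrl d16D the lowest or second lowest. ZFP42, the zinc finger marker also known as REX1, fell by 3.93 ± 0.45 and PRDM14, a repressor that guards pluripotency, by 3.17 ± 0.40 on the log2 scale. DPPA4, a chromatin protein of early embryos, fell from 143 and 142 FPKM to 21.2 and 18.5 FPKM at d16D and 27.2 and 32.6 at d16V (-2.51 ± 0.24, adjusted p = 0.00447). FOXD3 was at -1.85 ± 0.58, adjusted p = 0.0578 and VENTX at -0.80 ± 0.43, adjusted p = 0.194, neither passing, with V1PAKI d16D near the stem cell level for VENTX.

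Several noncoding RNAs of the pluripotent state fell as far as the factors. ESRG, a noncoding RNA named for its link to stem cells, stood at 228 and 291 FPKM at d0, 5.86 and 22.1 at d16D and 13.6 and 5.65 at d16V (-4.54 ± 0.55, adjusted p = 0.00616). LNCPRESS2 and LNCPRESS1, long noncoding RNAs lost on differentiation, stood at 38.6 and 35.4 FPKM and 13.3 and 34 FPKM at d0 and at no more than 1.31 and 0.773 FPKM in any d16 library. FOXD3-AS1, which runs antisense beside FOXD3, changed by -3.73 ± 0.47. Long noncoding RNAs were 11.8% of the 583 fallers that matched the annotation and 8.61% of the genes tested, while 7.41% of the 533 risers belonged to this class. Over all calls the order was the reverse, with 5.0% of the 2637 fallers and 10.5% of the 2572 risers. Other deep falls were those of POLR3G, a subunit of RNA polymerase III that stem cells use in place of its close relative (-4.57 ± 0.31), LCK, a kinase best known from T cells (-4.01 ± 0.20), GPR176, an orphan receptor (-3.90 ± 0.14), CNMD (-3.85 ± 0.28) and C13orf42 (-3.95 ± 0.19). For LCK and C13orf42 no d16 library exceeded 0.717 FPKM, against 16.7 FPKM or more at d0.

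NANOG, the homeobox factor that shares targets with POU5F1, stood at 16.4 and 16.2 FPKM at d0, 0.106 and 1.45 at d16D and 0.326 and 0.0613 at d16V (-3.63 ± 0.36, adjusted p = 0.00452). NANOGP8, a retrocopy with nearly the same sequence, fell as well (-3.84 ± 0.28, adjusted p = 0.00346), and reads of the 2 cannot be assigned with certainty. The promoter of NANOG is known to carry a composite site for POU5F1 and SOX2. In the 250 bases before the RefSeq start sites of 10398 tested genes, the composite motif, TTTGCAT and ACAA with any base between them, searched on both strands, was found in 5 genes (0.0481%), named here because the motif picked them. They are NANOG, PIPOX, an enzyme of pipecolic acid breakdown, which fell (-1.88 ± 0.26, adjusted p = 0.00755), NRARP, a feedback inhibitor of Notch signalling, which rose (1.05 ± 0.17, adjusted p = 0.0106), and LSM4 and RGS4, which did not pass. The same motif thus stood before genes that moved in opposite directions, and it was in 2 of 365 stricter fallers with a promoter sequence. The windows of NANOG (chr12:7789152-7789401, plus strand) and NRARP (chr9:137302272-137302521, minus strand), GRCh38.p14, from RefSeq, are shown from 5′ to 3′ up to the base before the start site, with the motif in capitals (in NRARP it is read on the other strand).
NANOG: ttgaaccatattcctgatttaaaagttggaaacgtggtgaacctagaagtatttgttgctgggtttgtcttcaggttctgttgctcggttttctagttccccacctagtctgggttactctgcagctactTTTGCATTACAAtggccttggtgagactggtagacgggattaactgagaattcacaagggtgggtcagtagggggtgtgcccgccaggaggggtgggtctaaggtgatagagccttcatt
NRARP: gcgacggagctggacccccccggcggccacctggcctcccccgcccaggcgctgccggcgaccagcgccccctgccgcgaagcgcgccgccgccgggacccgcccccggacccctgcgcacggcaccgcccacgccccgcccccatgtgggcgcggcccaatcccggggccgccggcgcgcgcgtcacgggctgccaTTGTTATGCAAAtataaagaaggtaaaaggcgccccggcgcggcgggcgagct

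The host transcript of the microRNA cluster miR-302/367, among the most abundant microRNAs of human stem cells, fell with the factors. MIR302CHG (chr4:112646476-112650051, minus strand in GENCODE 29, inside and antisense to LARP7) stood at 114 and 319.6 FPKM at d0, 4.84 and 10.9 at d16D and 15.9 and 16 at d16V (-4.01 ± 0.48, adjusted p = 0.00596). All d16 libraries lay below both stem cell libraries. Mature microRNAs were not measured, since the values come from long RNA, and the host and LARP7 cannot be told apart with certainty where strand was not used. The 3p arms of the 5 hairpins inside this host, from RefSeq, are shown because 4 of them share a seed, bases 2 to 8, which is in capitals. The 4 miR-302 arms share the seed AAGUGCU and differ toward the 3′ end, while miR-367 has the seed AUUGCAC.
hsa-miR-302a-3p: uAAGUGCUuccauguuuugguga
hsa-miR-302b-3p: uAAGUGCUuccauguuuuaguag
hsa-miR-302c-3p: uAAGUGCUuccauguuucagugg
hsa-miR-302d-3p: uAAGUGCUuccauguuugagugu
hsa-miR-367-3p: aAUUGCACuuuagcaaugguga

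In the list of microRNA hosts and the LIN28 axis, 4 of 14 tested genes fell and 2 rose (median -0.24). LIN28A, which blocks maturation of let-7, fell to a lesser extent than the host of miR-302, from 332 and 342 FPKM to 91 and 116 FPKM at d16D and 166 and 212 at d16V (-1.27 ± 0.34, adjusted p = 0.0365), and its paralog LIN28B stood at -0.18 ± 0.21, adjusted p = 0.521. TRIM71, a let-7 target of stem cells, fell by 1.10 ± 0.30. MIR124-2HG, a host of the neuronal microRNA miR-124, rose from 0.0704 and 0.0672 FPKM to 14.1 and 4.08 FPKM at d16D and 9.0 and 7.29 at d16V (3.06 ± 0.33, adjusted p = 0.00504). MIR9-3HG, a host of the neural precursor microRNA miR-9, was at 1.16 ± 0.51, adjusted p = 0.125, with its highest value in Ctrl d16D. With libraries left out in turn, 1 to 5 of these genes fell and 1 to 3 rose.

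Of the NODAL pathway, 2 of 10 tested genes fell and 1 rose. LEFTY1, an inhibitor and target of NODAL, fell from 3.43 and 4.0 FPKM to 0.254 and 1.51 FPKM at d16D and 0.279 and 0.0218 at d16V (-1.72 ± 0.37, adjusted p = 0.0206), and FOXH1, which carries the signal to DNA, stood at -1.89 ± 0.57, adjusted p = 0.0512. GDF1, a ligand related to NODAL, rose by 0.71 ± 0.20 from a low level. Without V1PAKI d16D 4 genes of this list fell, and without V1PAKI d0 none was called.

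FGF signalling genes moved both ways. Of 20 tested, 6 fell and 5 rose. Most of the called feedback genes that report MAP kinase activity fell: DUSP6, a phosphatase of ERK (-3.02 ± 0.35, adjusted p = 0.00569), SPRY4, a sprouty inhibitor (-2.93 ± 0.41, adjusted p = 0.0079), ETV4, a transcription factor (-2.50 ± 0.41, adjusted p = 0.0108), and DUSP5 (-2.43 ± 0.58, adjusted p = 0.0271). DUSP6 stood at 60.1 and 83.9 FPKM at d0, 4.66 and 7.67 at d16D and 12.3 and 8.61 at d16V, with all d16 libraries below both d0 libraries. DUSP4, a phosphatase of the same family, rose by 1.57 ± 0.32. The ligands FGF8 and FGF17, which pattern the anterior edge of the forebrain and the midbrain border, rose by 3.98 ± 0.37 and 1.25 ± 0.21. A pair of receptors moved in opposite directions. FGFR4 went from 16.3 and 17.2 FPKM to 2.27 and 6.91 FPKM at d16D and 3.48 and 2.37 at d16V (-2.0 ± 0.37, adjusted p = 0.0141) and FGFR3 from 4.29 and 4.98 FPKM to 21.6 and 39.3 FPKM at d16D and 40.9 and 29 at d16V (2.54 ± 0.28, adjusted p = 0.00516). With libraries left out in turn, 2 to 7 genes of the list fell and 2 to 5 rose.

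Genes of the anterior forebrain showed the highest median change of the 41 lists, although without V1PAKI d16V endoderm and liver genes had a higher one (4.74 against 3.90). Of 15 tested, 12 rose and 3 did not pass (median 3.89). With libraries other than Ctrl d0 left out in turn, 9 to 12 rose, 12 of them without V1PAKI d16D. SIX3, which keeps the anterior neural plate free of WNT signalling, stood at 0.101 and 0 FPKM at d0, 27.5 and 11.9 at d16D and 71.9 and 59.9 at d16V (5.09 ± 0.70, adjusted p = 0.00757). LHX2, a homeobox factor of the eye and the cortex, stood at 0.145 and 0.257 FPKM at d0, 99.5 and 22.6 at d16D and 36.1 and 27.8 at d16V (5.06 ± 0.49, adjusted p = 0.00447). RAX, a gene of the eye field and hypothalamus, stood at 0.019 and 0.104 FPKM at d0, 14.9 and 18.3 at d16D and 29.6 and 48.9 at d16V (4.62 ± 0.45, adjusted p = 0.00447). All d16 libraries lay above both d0 libraries for these genes, with SIX3 and RAX higher in d16V than in d16D in each line. NR2F1, an orphan nuclear receptor, was listed at 0 in both stem cell libraries and stood at 36 and 43.9 FPKM at d16D and 21 and 25.8 at d16V (4.98 ± 0.30, adjusted p = 0.0028). FOXD1 (2.33 ± 1.09, adjusted p = 0.145) and VAX2 (0.93 ± 0.42, adjusted p = 0.137) did not pass, FOXD1 being high in d16V and VAX2 in d16D.

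**Figure D3:**
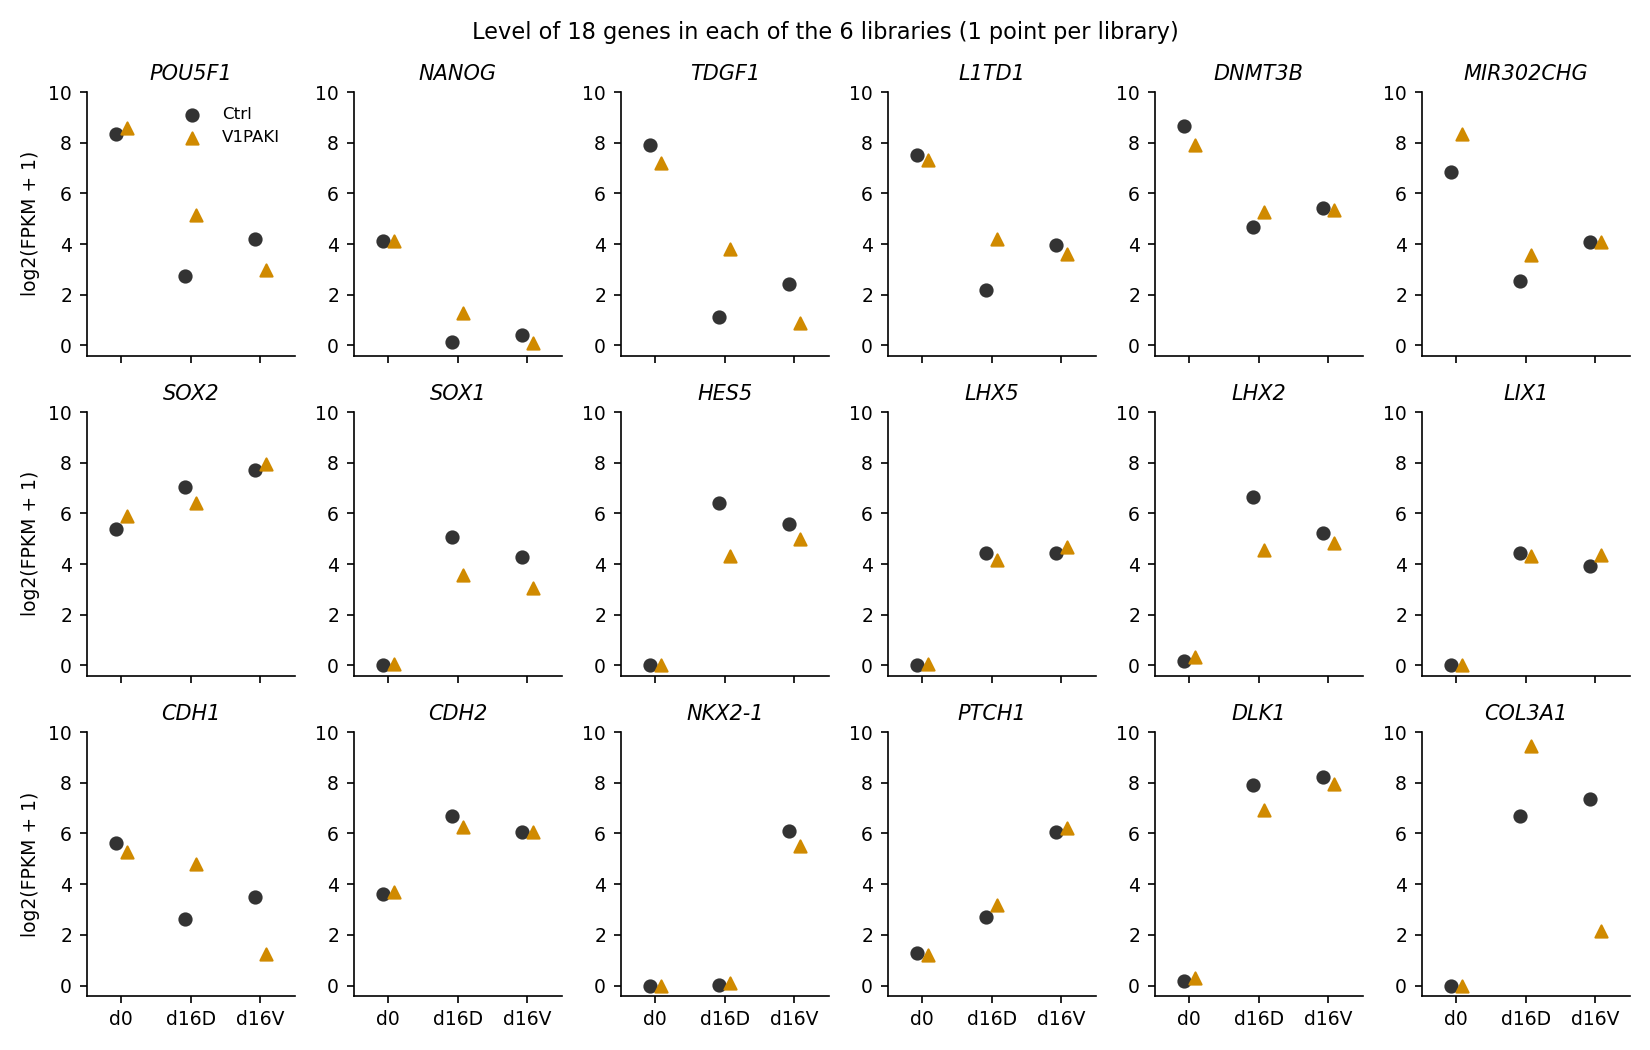
Level of 18 genes as log2(FPKM + 1) in each library, with black circles for Ctrl and orange triangles for V1PAKI. Stem cell genes (top row) fall, and neural genes (middle row) rise, in both arms of both lines, while NKX2-1 stands at 67.5 and 44.8 FPKM in d16V only and COL3A1 ranges from 3.44 to 701 FPKM among the d16 libraries.

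Of 33 neuroepithelial and radial glia genes, 20 rose and 3 fell (median 2.20). LIX1, a cytoplasmic protein of the early forebrain, was listed at 0 in both stem cell libraries and stood at 20.8 and 19.1 FPKM at d16D and 14.2 and 19.5 at d16V, with little spread between the d16 libraries (4.26 ± 0.18, adjusted p = 0.00208). PROM1, the antigen CD133 (-0.88 ± 0.26), ZIC5, a zinc finger factor (-0.68 ± 0.14), and SLC1A3, a glutamate transporter of later radial glia (-0.58 ± 0.12), were the members that fell, although PROM1 and SLC1A3 are known as precursor markers. Between 15 and 22 members rose with libraries left out in turn, and the 3 falls were lost with TPM. FZD5, a WNT receptor of the eye field, was at 39.9 and 20.5 FPKM at d16D and 105 and 80.7 at d16V against 11.5 and 14 FPKM and did not pass (1.94 ± 0.65, adjusted p = 0.0667).

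A set of genes went from near silence to clear expression in every d16 library. Chosen after seeing the values, 17 genes lay below 0.1 FPKM in both d0 libraries and at 5 FPKM or more in all d16 libraries. Among them are transcription factors of the forebrain or neuroepithelium: LHX5, SIX6, FEZF2, NR2F1, NR2F2, POU3F2, SOX1, ZBTB16 and ZNF503. LHX5, a homeobox gene of the anterior neural plate, stood at 20.9 and 16.9 FPKM at d16D and 20.6 and 24.9 at d16V, and its antisense neighbour LHX5-AS1 cannot be told apart from it with certainty. The reverse pattern, 5 FPKM or more at d0 and below 0.5 in all d16 libraries, held for 6 genes, of which TNFRSF8, a receptor also known as CD30 and a marker of embryonal carcinoma, is the only one named for a protein.

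Within the SOX family 8 of 14 tested genes rose and the other 6 did not pass (median 1.54). SOX2, which serves both stem cells and neural precursors, stood at 40.9 and 58.9 FPKM at d0, 130.2 and 83.8 at d16D and 206 and 246 at d16V, above both d0 libraries in all d16 libraries (1.62 ± 0.47, adjusted p = 0.0452). SOX3, its close relative in the neural plate, stood at 10.1 and 12.7 FPKM at d0, 106 and 55.6 at d16D and 90.8 and 135 at d16V (2.91 ± 0.36, adjusted p = 0.00639). SOX21, a partner that opposes them, stood at 0.579 and 0.645 FPKM at d0, 33.2 and 26.5 at d16D and 30.3 and 65.2 at d16V (4.54 ± 0.35, adjusted p = 0.00361). SOX1, absent or near 0 at d0, changed by 3.97 ± 0.40 (adjusted p = 0.00452). Of these, SOX2 had the highest stem cell level and the smallest change. SOX5, a SOXD factor of neurons and crest, rose by 2.43 ± 0.28. SOX10, a factor of neural crest, was at 10.0 FPKM in V1PAKI d16D and at no more than 1.78 in the other libraries (0.78 ± 0.71, adjusted p = 0.413).

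Of 7 POU factors tested, 2 rose and 1 fell. While POU5F1 fell, POU3F2, also known as BRN2, a POU factor of neural precursors, rose from below 0.1 FPKM to 9.9 and 7.61 FPKM at d16D and 6.95 and 9.18 at d16V (3.19 ± 0.18, adjusted p = 0.00259). POU3F3, also known as BRN1, stood at 43.3 and 5.6 FPKM at d16D and 4.09 and 4.33 at d16V (3.22 ± 0.87, adjusted p = 0.038), far higher in Ctrl d16D than in the other 3. POU3F1, also known as OCT6, which stem cells already express, stood at 13.6 and 18.1 FPKM at d0, 7.7 and 10.1 at d16D and 34.4 and 46.4 at d16V and did not pass (0.26 ± 0.76, adjusted p = 0.803).

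Epithelial adhesion genes of stem cells fell in part. Of 21 tested, 10 fell and 11 did not pass (median -1.92), and without V1PAKI d16D the count was 17. Without V1PAKI d0 it was 1, and 5 without Ctrl d16D or Ctrl d16V. CLDN6, a tight junction protein of stem cells, stood at 199 and 240.1 FPKM at d0, 20.1 and 57 at d16D and 51.8 and 27.5 at d16V (-2.58 ± 0.44, adjusted p = 0.0122), and ESRP1, a splicing factor of epithelia, at 31.4 and 24.5 FPKM at d0, 1.29 and 5.15 at d16D and 2.48 and 0.565 at d16V (-3.28 ± 0.56, adjusted p = 0.0117). CDH1, E-cadherin, stood at 48.3 and 37.1 FPKM at d0, 5.11 and 26.8 at d16D and 10.3 and 1.36 at d16V and did not pass (-2.40 ± 0.96, adjusted p = 0.102), nor did EPCAM (-2.69 ± 0.90, adjusted p = 0.0674). V1PAKI d16D held 26.8 FPKM of CDH1 and the list summed to 532 FPKM there, against 82.4 to 208 in the other d16 libraries and 672 and 704 at d0. The keratins KRT8 and KRT18 were also highest at d16 in that library, at 87.8 and 73.7 FPKM. The part of other epithelia in these values was not tested.

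Neural adhesion genes moved the other way, with 8 of 19 tested rising and 1 falling (median 1.44, with 5 to 10 rising over libraries left out in turn). CDH2, N-cadherin, stood at 11.3 and 12 FPKM at d0, 102 and 75.5 at d16D and 65.2 and 65.1 at d16V (2.60 ± 0.21, adjusted p = 0.00364), with no overlap between stages and a narrow range at d16. CDH11 and CDH20, cadherins of neural tissue, rose by 2.66 ± 0.25 and 2.70 ± 0.51, and NRCAM, an adhesion molecule of axons, by 2.70 ± 0.56. CNTN1, a contactin of neurons, fell from 3.66 and 3.3 FPKM to 0.696 and 0.458 FPKM at d16D and 0.322 and 0.13 at d16V (-1.69 ± 0.20, adjusted p = 0.00592). Of the 21 stem and neural pairs compared, CDH1 with CDH2 was one in which the neural member was called and the stem member was not. Other pairs with this outcome were KRT8 with VIM (2.49 ± 0.35, adjusted p = 0.00801) and KRT18 with NES (2.15 ± 0.29, adjusted p = 0.00754). In more pairs the stem member alone was called, as a fall. They were DNMT3B with DNMT3A, ESRP1 with RBFOX2, LEFTY1 with SHH, LIN28A with LIN28B, SLC2A3 with SLC2A1, ENO1 with ENO2 and DPPA4 with HMGA2. In limma PHF10 rose (0.67 ± 0.13, adjusted p = 0.0155), while its neural partner DPF1 was not called. CLDN10, listed as the neural partner of CLDN6, fell in limma too (-1.44 ± 0.27, adjusted p = 0.0146).

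**Figure D4:**
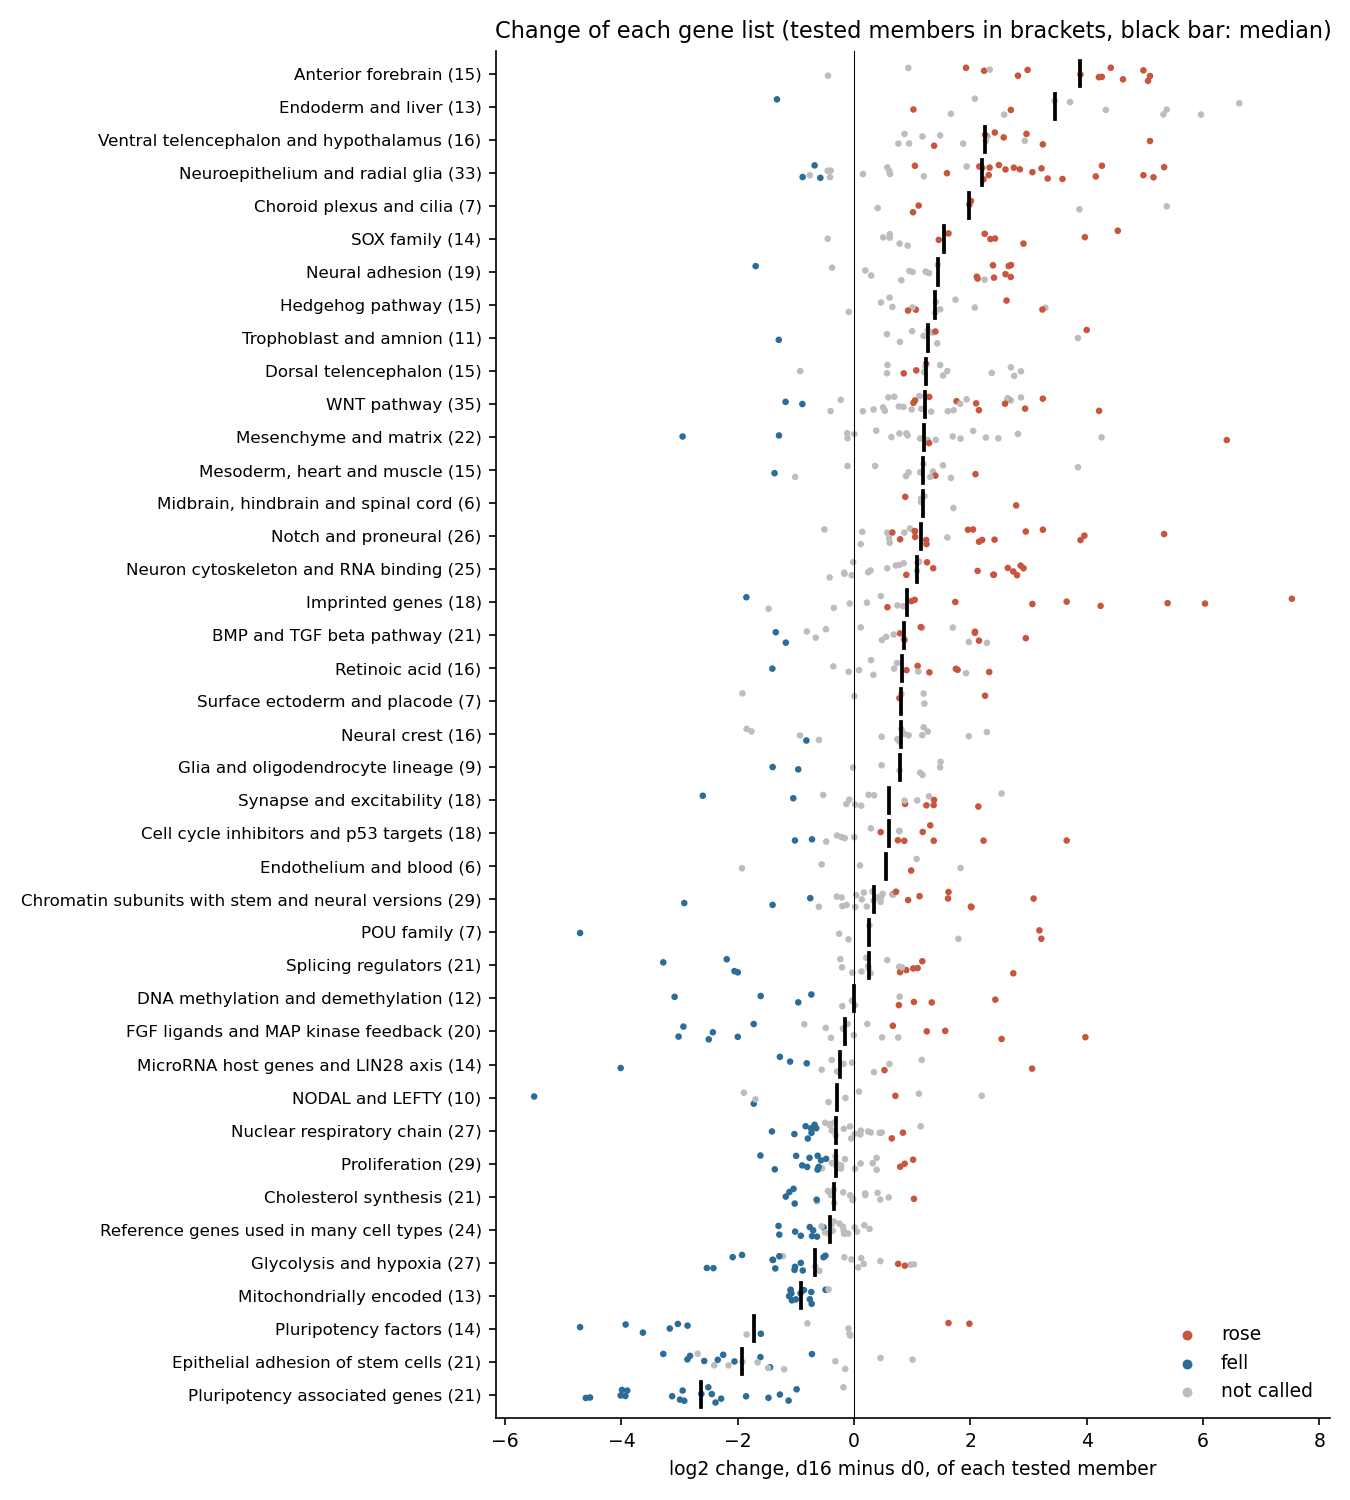
Log2 change from d0 to d16 of every tested member of 41 gene lists, one row per list ordered by its median (black bar), with red for genes that rose, blue for genes that fell and grey for genes not called. Anterior forebrain genes have the highest median (3.89) and pluripotency associated genes the lowest (-2.63).

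Notch and proneural genes rose together: 17 of 26 tested rose and the other 9 did not pass (median 1.15), and 12 to 17 rose with libraries left out in turn. The effectors led. HES5, a target through which Notch keeps precursors dividing, was listed at 0 in both stem cell libraries and stood at 85.2 and 19.2 FPKM at d16D and 46.4 and 30.9 at d16V (5.33 ± 0.41, adjusted p = 0.00357). HES4, a related repressor, stood at 0.269 and 0.989 FPKM at d0, 119.9 and 31.4 at d16D and 64.7 and 38.3 at d16V (5.15 ± 0.49, adjusted p = 0.00447). In both genes V1PAKI was lower than Ctrl in each arm, and all d16 libraries lay above d0. The ligand DLL1 stood at 0.749 and 0.70 FPKM at d0, 42.2 and 15.8 at d16D and 24.9 and 22.1 at d16V (3.89 ± 0.29, adjusted p = 0.00346). NEUROG2, a proneural factor, rose by 1.24 ± 0.33 to at most 2.17 FPKM. ID4, an inhibitor of proneural factors, was higher in d16D than in d16V in each line, at 76.4 and 35.2 FPKM at d16D and 18.5 and 9.6 at d16V (3.96 ± 0.71, adjusted p = 0.0135). JAG1 (0.96 ± 0.32, adjusted p = 0.0661) and NEUROG1 (1.61 ± 0.73, adjusted p = 0.136) did not pass.

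RBPJ, the factor that carries the Notch signal to DNA, is known to bind GTGGGAA. The 250 bases before the start sites of HES5 and HES4 held this motif at 2 places and 1 place, searched on both strands. It was found before 7.08% of the 10398 tested genes with a sequence, and before 7.35% of 340 stricter risers, so the share among risers was close to that of all genes. Both windows lie on the minus strand, HES5 at chr1:2530264-2530513 and HES4 at chr1:1000098-1000347, GRCh38.p14, from RefSeq. The motif is in capitals, and in HES5 the first match is read on the other strand.
HES5: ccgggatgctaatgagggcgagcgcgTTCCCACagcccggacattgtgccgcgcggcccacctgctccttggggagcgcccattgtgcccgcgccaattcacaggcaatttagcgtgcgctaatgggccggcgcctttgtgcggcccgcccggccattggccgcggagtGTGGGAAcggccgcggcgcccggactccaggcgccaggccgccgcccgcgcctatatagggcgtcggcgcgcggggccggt
HES4: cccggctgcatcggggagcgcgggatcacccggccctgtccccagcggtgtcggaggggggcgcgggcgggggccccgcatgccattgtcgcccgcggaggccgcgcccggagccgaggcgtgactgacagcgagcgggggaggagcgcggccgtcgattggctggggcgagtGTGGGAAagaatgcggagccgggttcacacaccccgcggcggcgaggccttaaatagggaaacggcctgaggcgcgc

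Early neuron genes rose in part. Of 25 tested genes of the neuronal cytoskeleton and RNA binding, 12 rose and 13 did not pass (median 1.08), with 8 to 14 over libraries left out in turn. DCX, doublecortin of migrating neurons, stood at 0.963 and 1.19 FPKM at d0, 26 and 4.89 at d16D and 14.3 and 17 at d16V (2.80 ± 0.54, adjusted p = 0.0158). MAP2, a protein of dendrites, stood at 1.01 and 1.91 FPKM at d0, 25.2 and 11.3 at d16D and 17.2 and 17.9 at d16V (2.91 ± 0.33, adjusted p = 0.00556), and STMN4, a stathmin of neurons, at 0 and 0.0158 FPKM at d0, 9.43 and 3.29 at d16D and 7.39 and 6.75 at d16V (2.87 ± 0.31, adjusted p = 0.00504). V1PAKI d16D was the lowest of the d16 libraries in all 3. TUBB3, neuronal tubulin, already stood at 28.4 and 32.8 FPKM at d0 and did not pass (1.08 ± 0.35, adjusted p = 0.0589). Of 18 synapse and excitability genes tested, 5 rose and 2 fell (median 0.61), with 3 to 7 and 1 to 2 over libraries left out in turn. SYT11, a vesicle protein, rose by 2.14 ± 0.23, GAD1, which makes GABA, by 1.38 ± 0.26, and GRIA1, a glutamate receptor, by 1.37 ± 0.18. GAD1 and GRIA1 stayed at no more than 2.76 FPKM.

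Regional genes rose in part. Of 16 tested ventral telencephalon and hypothalamus genes, 7 rose (median 2.26), and of 15 dorsal telencephalon genes 3 rose (median 1.24). DLX1, a gene of GABA neuron precursors, stood at 16.2 and 0.882 FPKM at d16D and 6.62 and 4.1 at d16V and was listed at 0 at d0 (2.57 ± 0.64, adjusted p = 0.03). DBX1 stood at 2.35 and 3.09 FPKM at d16D and 13.6 and 23.2 at d16V (2.97 ± 0.87, adjusted p = 0.0476). Some genes with unlike levels in the arms did not pass against d0: EMX2, a dorsal cortex factor, was at 24.2 and 12.3 FPKM at d16D and 1.64 and 1.4 at d16V (2.75 ± 1.07, adjusted p = 0.0964), and WNT7B was at 15 and 19.6 FPKM at d16D and 3.23 and 1.68 at d16V (2.87 ± 0.92, adjusted p = 0.059). Of 6 tested genes of midbrain, hindbrain and spinal cord, PAX2 (2.79 ± 0.81, adjusted p = 0.0453) and GBX2 (0.88 ± 0.22, adjusted p = 0.0306) rose, and of the 18 listed 12 did not reach the filter. HOXB2, a hindbrain gene, was at 10.7 FPKM in V1PAKI d16D and at no more than 1.8 in the others (1.71 ± 0.84, adjusted p = 0.162). Counts in these lists were 4 to 9, 0 to 6 and 0 to 5 with libraries left out in turn.

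Between the arms 5 genes (0.033% of those tested) passed in a limma fit of all 6 libraries with terms for line, stage and arm. An unadjusted p below 0.05 was seen for 774 genes. NKX2-1, which specifies the ventral telencephalon and hypothalamus, stood at 67.5 and 44.8 FPKM in d16V and at no more than 0.0826 in d16D (d16V minus d16D on the log2 scale 5.74 ± 0.24, adjusted p = 0.014). NKX2-2, a factor of the ventral midline, stood at 23.1 and 22.6 FPKM in d16V (4.56 ± 0.19, adjusted p = 0.014) and NKX2-8, its relative beside NKX2-1, at 16.2 and 32.5 (4.52 ± 0.28, adjusted p = 0.0438). PTCH1, the hedgehog receptor and a direct target of the pathway, stood at 5.56 and 8.04 FPKM at d16D and 65.3 and 73.2 at d16V (3.19 ± 0.20, adjusted p = 0.0438). TRH, a hypothalamic hormone, was the gene lower in d16V, at 19.3 and 20.2 FPKM at d16D and 0.733 and 0.525 at d16V (-3.67 ± 0.19, adjusted p = 0.0281). Each difference was seen in both lines, and d16V was the arm in which PTCH1 was higher. None of the 5 was called against d0 over both arms, PTCH1 being nearest (3.29 ± 1.17, adjusted p = 0.0784). The 5 calls became 0 with a pseudocount of 0.1 or with no filter, and 12 with median-of-ratios scaling.

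Of 15 tested hedgehog pathway genes, 4 rose against d0 (median 1.40). GAS1 and BOC, coreceptors that the pathway is known to turn down, stood at 40.6 and 38.2 FPKM at d16D and 8.0 and 10.4 at d16V (3.24 ± 0.74, adjusted p = 0.0247) and at 17.4 and 10.5 FPKM at d16D and 5.85 and 8.15 at d16V (2.62 ± 0.40, adjusted p = 0.009), higher in d16D than in d16V in each line. The transducer SMO (1.06 ± 0.16) and the inhibitor SUFU (0.93 ± 0.19) rose as well. SHH itself stood at 0.249 and 0.467 FPKM at d16D and 12.2 and 4.23 at d16V and did not pass (1.75 ± 1.01, adjusted p = 0.221), nor did FOXA2 of the floor plate (2.08 ± 0.84, adjusted p = 0.106). Without V1PAKI d0 1 gene of the list was called.

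Of 35 tested WNT pathway genes, 11 rose and 2 fell (median 1.23), and without V1PAKI d16D 20 rose. The largest rises were those of FRZB, a decoy of WNT ligands, at 1.76 and 3.89 FPKM at d0, 59.8 and 98.6 at d16D and 75 and 46.2 at d16V (4.21 ± 0.35, adjusted p = 0.00375), and the ligand WNT5B, with FZD8, a receptor of the forebrain, at 2.47 and 3.02 FPKM at d0, 47.3 and 12.4 at d16D and 42.3 and 23.2 at d16V (2.94 ± 0.41, adjusted p = 0.00786). WNT5B rose by 3.25 ± 0.33 and the nuclear factor LEF1 by 2.65 ± 0.56, while TCF7L1, a repressor of stem cells, fell by 1.18 ± 0.29 and the receptor FZD7 by 0.89 ± 0.21. WNT8B, a ligand of the cortical hem, was at 12.9 and 32.7 FPKM at d16D and 3.47 and 1.11 at d16V and did not pass (2.70 ± 1.13, adjusted p = 0.115). Of 21 BMP and TGF beta genes, 7 rose and 2 fell (median 0.85): the antagonists FST (2.95 ± 0.62) and NOG (2.08 ± 0.52), the ligand BMP7 (2.08 ± 0.40) and the target ID2 (2.15 ± 0.33) rose, and CCN2, a matrix protein induced by TGF beta, fell (-1.35 ± 0.33), as did INHBE, an inhibin beta subunit (-1.17 ± 0.24). Of 16 retinoic acid genes, 6 rose and 1 fell (median 0.82), among them CRABP2, a carrier at 121 and 171 FPKM at d16D and 146 and 112 at d16V (1.78 ± 0.27), MEIS2 (2.32 ± 0.40), MEIS1 (1.75 ± 0.49) and CYP26A1, which breaks retinoic acid down (1.30 ± 0.36). The receptor RARG fell by 1.40 ± 0.20. The counts of risers in the 3 lists were 4 to 21, 2 to 11 and 3 to 8 with libraries left out in turn.

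Chromatin and DNA methylation genes changed by member. DNMT3B, the de novo methyltransferase of stem cells, stood at 400.3 and 237 FPKM at d0, 24.7 and 37.7 at d16D and 42.1 and 39.9 at d16V (-3.08 ± 0.31, adjusted p = 0.00452), while DNMT3A stood at 8.92 and 9.55 FPKM at d0, 10.7 and 9.46 at d16D and 8.99 and 8.39 at d16V (0.02 ± 0.14, adjusted p = 0.93). TET1, an enzyme that oxidises methylated cytosine, fell (-0.96 ± 0.22, adjusted p = 0.0254), and TET3 (0.77 ± 0.16, adjusted p = 0.0197) and TET2 (1.03 ± 0.17, adjusted p = 0.0104) rose. UHRF1, which guides maintenance methylation, rose by 1.34 ± 0.17 and GADD45G by 2.43 ± 0.19. In all, 4 of 12 tested genes rose and 4 fell, with 3 to 5 and 2 to 4 over libraries left out in turn. Polycomb subunits also exchanged places. PHC1 stood at 198 and 242 FPKM at d0, 29.1 and 23.1 at d16D and 31.6 and 29.1 at d16V (-2.92 ± 0.17, adjusted p = 0.00263) and its paralog PHC2 at 2.55 and 3.78 FPKM at d0, 42.5 and 27.8 at d16D and 34.7 and 32.8 at d16V (3.09 ± 0.22, adjusted p = 0.00342), with neither overlapping between stages. CBX8, a reader subunit, rose by 2.01 ± 0.23, and JARID2, a partner of the PRC2 complex, fell by 1.40 ± 0.21. Of 29 tested genes of this list 9 rose and 3 fell (median 0.34), and 4 rose without Ctrl d16D or Ctrl d16V. Of the neuronal subunits of the BAF remodelling complex, ACTL6B was at 0.41 ± 0.27, adjusted p = 0.273 and DPF1 at 0.68 ± 0.21, adjusted p = 0.0563, neither passing, whereas SMARCD3, another subunit, rose by 2.02 ± 0.28.

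Of 21 splicing regulators tested, 4 fell and 6 rose. Without Ctrl d16D 2 fell and 2 rose, without Ctrl d16V 2 and 3, without V1PAKI d0 1 and 3, and without V1PAKI d16V 4 and 4. ESRP2 and RBM47, which like ESRP1 set epithelial splicing, fell by 2.06 ± 0.51 and 2.19 ± 0.57, each with V1PAKI d16D highest at d16, at 3.35 and 4.67 FPKM. PTBP3, a relative of PTBP1, fell from 30.3 and 33.6 FPKM to 5.95 and 7.42 FPKM at d16D and 8.52 and 7.29 at d16V (-2.0 ± 0.16, adjusted p = 0.00364). PTBP1 stood at -0.21 ± 0.13, adjusted p = 0.264 and the neuronal PTBP2 at 0.28 ± 0.19, adjusted p = 0.284, so the exchange between them known from later neurons was not called. CELF3 of neurons rose by 2.74 ± 0.47, MBNL2 by 1.17 ± 0.23 and CELF2 by 1.02 ± 0.21.

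Energy metabolism genes were lower at d16 in part. Of 27 glycolysis and hypoxia genes, 14 fell and 2 rose (median -0.67, and between -0.76 and -0.59 under the 3 other scalings). SLC2A3, a high-affinity glucose carrier, stood at 137 and 151 FPKM at d0, 13.2 and 61.4 at d16D and 26.4 and 21.3 at d16V (-2.42 ± 0.49, adjusted p = 0.0185), LDHA, lactate dehydrogenase, at 62.2 and 95.3 FPKM at d0, 12.7 and 31.2 at d16D and 15 and 15.1 at d16V (-2.09 ± 0.28, adjusted p = 0.00754), and HK1, hexokinase, fell by 1.93 ± 0.17. SLC2A1, the other main carrier, stood at -0.17 ± 0.29, adjusted p = 0.676. Of 13 mitochondrially encoded genes 12 fell, MT-ND3 being the other (median -0.92, with 6 falls under TPM), with MT-CO1 at 8408 and 8483 FPKM at d0, 5380.1 and 4506 at d16D and 5583 and 4909 at d16V (-0.73 ± 0.13, adjusted p = 0.0133). Of 27 nuclear genes of the respiratory chain 8 fell and 2 rose (median -0.31). Without V1PAKI d0, 8 glycolysis and hypoxia genes fell, and the nuclear list had 3 falls and a median of 0.10. The nuclear median was -0.04 with TPM and -0.45 with median-of-ratios scaling. Of 24 reference genes used in many cell types 9 fell (4 to 10 over libraries left out in turn) and 15 did not pass, with a median of -0.41 here and -0.20 with TPM. Glycolysis and mitochondrial lists lay below the reference list under every scaling tried, while the nuclear respiratory chain did not. A scaling moves well expressed genes by much the same amount, so it could hardly change this order. The reference list is also not independent of the others. It holds PGK1 and GPI, enzymes of glycolysis that fell, and shares SDHA with the nuclear list.

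Among cell cycle genes, more proliferation genes fell than rose, and more inhibitors and p53 targets rose than fell. Of 29 proliferation genes 11 fell and 3 rose (median -0.32, and -0.11 with TPM). The risers were a smaller share than the 17.0% of all genes tested. MYC fell by 1.61 ± 0.26 and the mitotic kinase BUB1 by 1.36 ± 0.23, while CCND1, cyclin D1 of neural precursors (1.02 ± 0.27), and MKI67 (0.87 ± 0.26) rose. Among 18 cell cycle inhibitors and p53 targets 8 rose and 2 fell (median 0.61). CDKN1C, the inhibitor p57, an imprinted gene, stood at 1.74 and 2.66 FPKM at d0, 29.5 and 45.9 at d16D and 53 and 31.8 at d16V (3.66 ± 0.29, adjusted p = 0.00363), and BTG2, a gene of precursors about to make neurons, rose by 2.23 ± 0.24. Without V1PAKI d0 none of the proliferation genes fell, and without Ctrl d16D or Ctrl d16V 3 and 5 did. Of the inhibitors and targets 4 rose without either of these. Of 21 cholesterol synthesis genes 5 fell and 1 rose (median -0.34, and -0.13 with TPM). Without V1PAKI d0 none fell, 2 rose and the median was 0.016, while 1 fell without Ctrl d16D, 2 without V1PAKI d16V and 2 after the GC and length correction.

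Imprinted genes held the steepest rise of the comparison. Of 18 tested, 10 rose and 1 fell (median 0.92). DLK1, a membrane protein that restrains differentiation, stood at 0.136 and 0.226 FPKM at d0, 243 and 122 at d16D and 297 and 250.2 at d16V, high in all 4 d16 libraries (7.53 ± 0.33, adjusted p = 0.00208). NNAT, a small membrane protein of the developing brain, stood at 10.4 and 27.7 FPKM at d0, 578 and 127 at d16D and 485 and 379 at d16V (4.24 ± 0.69, adjusted p = 0.0108). IGF2, a growth factor, stood at 0.192 and 0.431 FPKM at d0, 76.9 and 541 at d16D and 170.3 and 6.44 at d16V (6.04 ± 1.64, adjusted p = 0.0388), and its noncoding neighbour H19 at 0.441 and 0.987 FPKM at d0, 39.7 and 405 at d16D and 149.8 and 9.23 at d16V (5.39 ± 1.47, adjusted p = 0.0387). IGF2 and H19 were highest in V1PAKI d16D and lowest in V1PAKI d16V, as the non-neural lists below were and DLK1 was not. Without V1PAKI d16D both still passed in limma (4.79, adjusted p = 0.0231, and 4.31, adjusted p = 0.0259). SNRPN, a splicing protein, fell from 163 and 201 FPKM to 40.3 and 47.7 FPKM at d16D and 57.6 and 54.1 at d16V (-1.85 ± 0.18, adjusted p = 0.00447). With libraries left out in turn 5 to 12 rose.

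Genes of tissues outside the nervous system rose in some d16 libraries much more than in others. The 21 listed endoderm and liver genes summed to 563 FPKM in Ctrl d16D, 3146 in V1PAKI d16D, 351 in Ctrl d16V and 36.6 in V1PAKI d16V, against 8.73 and 11.3 at d0. Of 13 tested, 2 rose and 1 fell although their median was 3.45. Without V1PAKI d16D 5 rose, and without V1PAKI d16V 10. APOA1, a lipoprotein of yolk sac and liver, stood at 0.0439 and 0.0543 FPKM at d0, 107 and 679 at d16D and 63 and 2.93 at d16V (5.96 ± 1.94, adjusted p = 0.0619), and AFP did not pass either (6.62 ± 2.02, adjusted p = 0.0528). APOA4, of the same class but not a member of the list, stood at 37.3 and 312 FPKM at d16D and 30.0 and 4.3 at d16V. It passed narrowly in limma (5.23 ± 1.53, adjusted p = 0.0467). The 2 listed genes that rose were CXCR4, a chemokine receptor that neural precursors also express (2.70 ± 0.25), and FOXA1. FOXA3 fell by 1.32 ± 0.37.

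The 23 mesenchyme and matrix genes were again highest in V1PAKI d16D and lowest in V1PAKI d16V, at sums of 462, 2028, 678 and 123 FPKM in Ctrl d16D, V1PAKI d16D, Ctrl d16V and V1PAKI d16V, against 212 and 274 at d0. COL3A1, a fibrillar collagen, stood at 102 and 701 FPKM at d16D and 161 and 3.44 at d16V and passed narrowly (6.41 ± 1.91, adjusted p = 0.0497), while LUM, a matrix proteoglycan, did not (4.26 ± 1.47, adjusted p = 0.0716). Of 22 tested, 2 rose and 2 fell, with 6 rising without V1PAKI d16D and 14 without V1PAKI d16V. THY1, a surface protein of stem cells as well as fibroblasts, fell in all libraries, from 58.8 and 67.5 FPKM to 5.84 and 8.16 FPKM at d16D and 7.16 and 8.29 at d16V (-2.95 ± 0.13, adjusted p = 0.00208). Trophoblast and amnion genes summed to 38.3, 269, 68.1 and 11.6 FPKM and mesoderm genes to 32.8, 245, 54.5 and 11.1 in the same order. At d0 these sums were 6.16 and 5.64 FPKM and 17.0 and 22.7 FPKM, so the mesoderm sum in V1PAKI d16V lay below d0. Each list had 2 risers and 1 faller, with 0 to 5 risers for trophoblast and 0 to 6 for mesoderm over libraries left out in turn (2 and 3 without V1PAKI d16D). The trophoblast and mesoderm lists share HAND1 and ISL1, so their sums and counts are not independent. HAND1, which enters both sums, was at 8.41 and 134 FPKM at d16D and 19.9 and 0.734 at d16V (3.85 ± 1.65, adjusted p = 0.122). ISL1 was 1 of the 2 risers of each list. IGFBP3, the other trophoblast riser, rose by 4.0 ± 0.83. Of 16 neural crest genes 1 fell and 15 did not pass, while 5 rose and 2 fell without V1PAKI d16V, and 0 rose and 5 fell without V1PAKI d16D. Choroid plexus and cilia genes summed to 161, 528, 122 and 66.1 FPKM. Of 7 tested, 4 rose (1 without V1PAKI d0 or Ctrl d16V, 2 without Ctrl d16D, 6 without V1PAKI d16D). These were TPPP3, OTX2, RFX3 and RFX2, while TTR and AQP1 did not pass. TTR, the main secreted product of choroid plexus and also one of yolk sac and liver, stood at 68.2 and 417 FPKM at d16D and 39.2 and 1.57 at d16V (5.38 ± 1.92, adjusted p = 0.0783). It made up most of the V1PAKI d16D sum. Of 9 glia genes tested 2 fell and 7 did not pass, with 0 to 2 falling and 0 to 2 rising over libraries left out in turn. Without V1PAKI d16D, limma gave AFP 5.06 (adjusted p = 0.0295), APOA1 4.42 (0.0287), COL3A1 4.93 (0.0272), LUM 3.15 (0.0498) and TTR 3.85 (0.0394), all called, and HAND1 2.5 (0.06), not called. The part of non-neural cells in the other results was not tested.

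**Figure D5:**
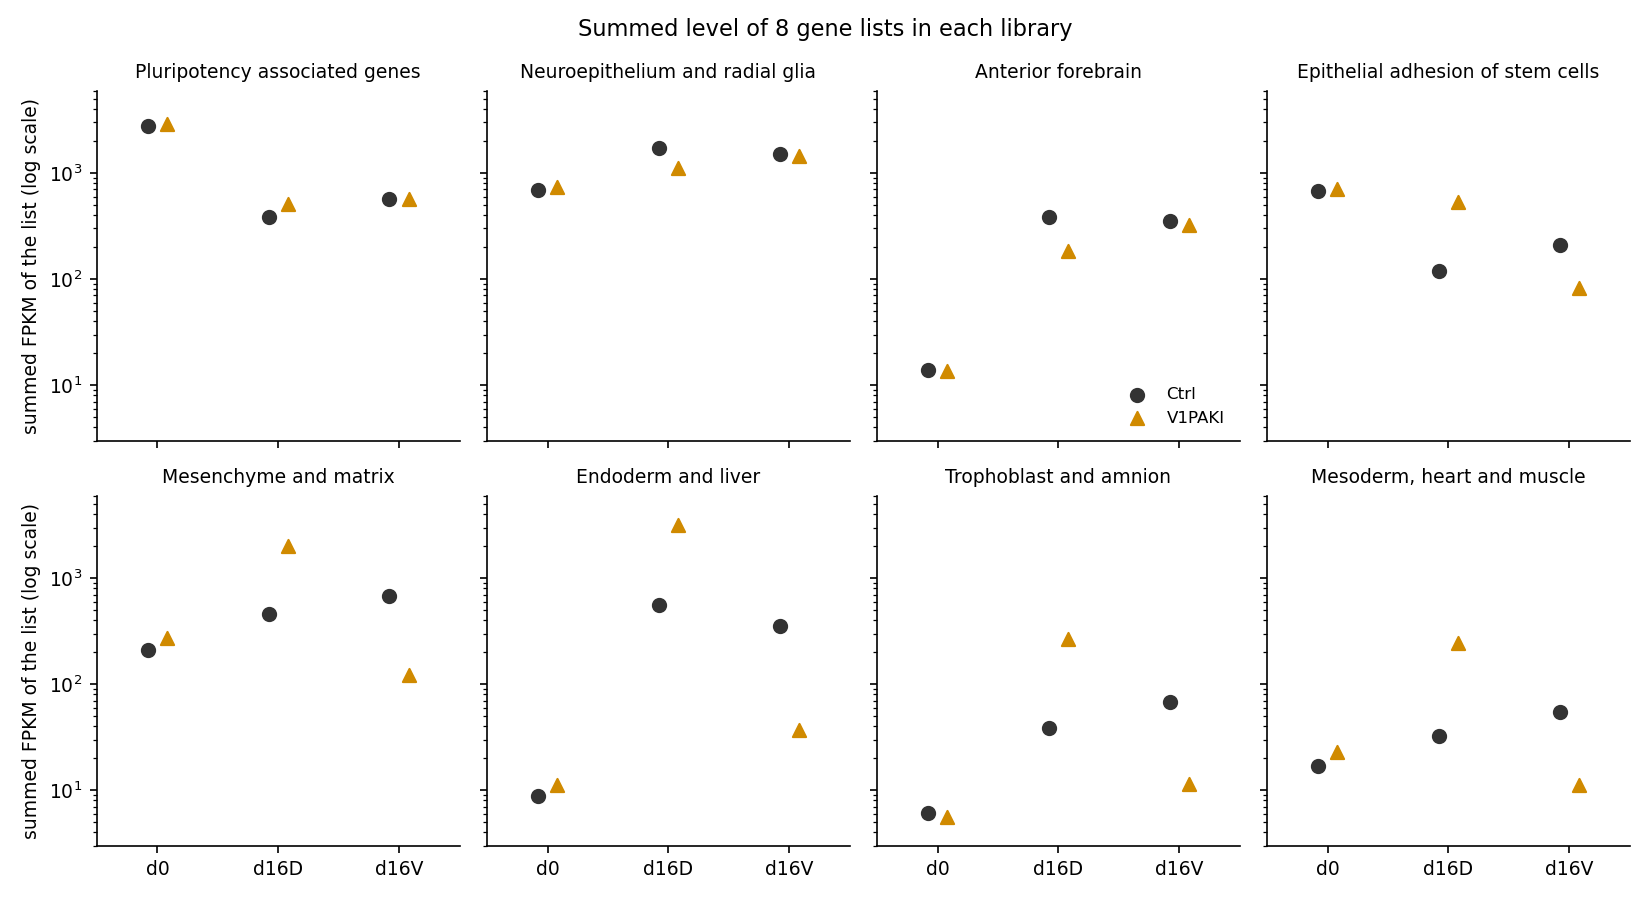
Summed FPKM of 8 gene lists (log axis) in each library, with black circles for Ctrl and orange triangles for V1PAKI. Endoderm and liver genes range from 36.6 to 3146 FPKM among the d16 libraries, while anterior forebrain genes range from 182 to 384 FPKM.

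Remaining lists gave few calls. Of 7 surface ectoderm and placode genes 2 rose, with 1 to 4 over libraries left out in turn, led by DLX5 (2.25 ± 0.36), which ventral forebrain also expresses. Of 6 endothelium and blood genes VWF rose (0 to 2 rising over libraries left out in turn), to at most 1.76 FPKM. KDR, a VEGF receptor that stem cells express, stood at 29 and 28.8 FPKM at d0, 3.64 and 26.6 at d16D and 7.81 and 2.39 at d16V, V1PAKI d16D being near the stem cell level (-1.93 ± 0.83, adjusted p = 0.124).

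The transcripts that fell and those that rose differed in composition. The median GC content, taken over the transcripts of each gene in GENCODE 29, was 55.6% for the 2572 risers, 46.2% for the 2637 fallers and 50.3% for all tested genes. The annotated gene spanned 22.0 kb at the median for risers, 35.5 kb for fallers and 26.8 kb for all. After a trend on GC content and length was removed from each library, with line kept as a block, 2246 genes rose and 2474 fell, and 1951 of the risers and 2080 of the fallers were called as before. The part of library preparation in this shift was not tested.

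The change from d0 to d16 did not differ between the lines for any gene in limma at the adjusted threshold (0.0% of 15165 tested, lowest adjusted p = 0.416), with 1152 genes at an unadjusted p below 0.05. Each line then had 1 library at d0, so this test rests on the spread between arms. SOX1-OT, the noncoding gene in the title of the series (chr13:112107119-112108015, plus strand in GENCODE 29), stood at 0 and 0 FPKM at d0, 1.87 and 0.212 at d16D and 3.51 and 1.22 at d16V and did not pass (1.28 ± 0.40, adjusted p = 0.0558). SOX1 lies upstream at chr13:112067647-112070488, was lower in V1PAKI than in Ctrl in both arms, and passed over both lines. HDAC10, the deacetylase in the title, stood at 1.1 and 1.98 FPKM at d0, 3.92 and 3.18 at d16D and 4.12 and 3.91 at d16V (0.93 ± 0.20, adjusted p = 0.0202), with all d16 libraries above both d0 libraries.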

How the data were processed

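RNA of 10 libraries of H9 cells was sequenced, and the 4 labelled d16 and 2 labelled d0 were analysed here. The authors deposited FPKM for 42335 gene symbols per library. Per the submitters' processing notes, cutadapt 1.18, HISAT2 2.1.0, Cufflinks and genome build GRCh38 were used. Neither annotation nor filters are named there, and the use of strand is not given in the sources used here. Depth is unknown: among 3524 genes below 0.1 FPKM in 2 libraries, the commonest ratio between them was shared by 0.568%, so whole reads could not be recovered.

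Genes reaching 1 FPKM in 2 or more of the 6 libraries were fitted on log2(FPKM + 1) by limma 3.58.1 in R 4.3.3 (eBayes, intensity trend on) with terms for stage and line (3 residual degrees of freedom, 5.63 after moderation). All tests were two-sided, with Benjamini-Hochberg adjustment across 15165 genes and a threshold of 0.05. Further fits gave the difference in change between lines (2 residual degrees of freedom) and between arms (2 residual degrees of freedom). Line was the block because same-line libraries share a cell line. The correlation of line differences across genes was -0.00 between d0 and d16D, 0.09 between d0 and d16V and -0.32 between d16D and d16V. No libraries held identical values. On simulated data for the comparison of d16 with d0 (15165 genes, 50 changed per size), the fit recovered 40% of genes changed by 1 on the log2 scale and 98%, 96% and 96% of those changed by 2, 3 and 4. It made 7 false calls. The simulated noise was independent between libraries and far fewer genes changed than were called in the data, so these rates need not carry over.

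Members and the 41 lists (811 genes, 809 in the table, 654 tested) were chosen with earlier results of these data known. The genes named are the 15 largest rises and falls of at least 1 in all 4 within-line differences, passing over clone, LINC and read-through names, up to 4 called members of a list in each direction and 2 not called, both genes of each pair, the genes of the title, the 5 highest genes per stage and the genes called between the arms, as far as space allowed. Others are marked as chosen after their values were seen. Some genes that the rule names are not reported here. Symbols were matched to GENCODE 29 (39994 directly, 463 through another symbol) for coordinates and GC content, and to RefSeq tables (GRCh38.p14) for sequences. Alternatives changed the pseudocount, filter, scaling, trend, block, arms, libraries used and GC correction. One scaling, without mitochondrial and RN7SL genes, was chosen after seeing the data. A value of 0 FPKM may be a failed estimate.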

Additional observations from a re-analysis of the deposited data

Results flagged for a closer look

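POU3F3 stood at 43.3 FPKM in Ctrl d16D, far from the other 3 d16 libraries (4.09 to 5.6 FPKM). It was the only gene among 184 checked in the 4 d16 libraries whose highest or lowest value stood off, on the log2 scale, by more than Dixon's critical value for 4 samples, which chance passes in about 1 of 20 groups.

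The arms differed for 5 genes by the fit of the 6 libraries with a term for arm. NKX2-1 (5.74 on the log2 scale, d16V minus d16D), NKX2-2 (4.56), NKX2-8 (4.52) and PTCH1 (3.19) were higher in d16V in both lines, and TRH (-3.67) was lower.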

How the results depend on the processing

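The 2572 rises and 2637 falls stayed within 1.5 times of these counts in both directions with a pseudocount of 0.1, median-of-ratios scaling, no intensity trend, arms averaged, d16V only, all 10 libraries, and a GC and length trend removed with the replicate block kept. Without the replicate block for line they were 2926 and 2880. With totals less mitochondrial and RN7SL genes, chosen after seeing the data, they were 3218 and 2205. Risers numbered 1055 with no filter, 1543 with a filter at 5 FPKM and 4465 with TPM (22358 genes tested). With d16D only, 878 rose and 814 fell. Leaving out each library in turn gave 0 to 3483 risers and 0 to 3065 fallers, with 0 of each without Ctrl d0. The change between lines gave 0 calls under the 7 settings tried. The 5 arm calls became 0 with a pseudocount of 0.1, 0 with no filter, 2 with a filter at 5 FPKM, 3 with TPM, 3 with no intensity trend, 12 with median-of-ratios scaling and 12 with totals less mitochondrial and RN7SL genes. The line and arm fits were not run with libraries left out. The cause of these differences was not tested.

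Of 184 genes named, 143 were called, and 0 of these changed sign under the settings run. The call was lost by 52 with no filter, 30 with d16D only, 11 with TPM, and 10 or fewer under each other setting on all libraries or d16V only. All 143 lost it without Ctrl d0, 64 without V1PAKI d0, and 36 and 37 without Ctrl d16D and Ctrl d16V. The sign turned for 7 uncalled genes. LIN28B stood at 0.026 with TPM and 0.029 with d16V only. POU3F1 stood at -0.77 with d16D only and -0.33 with GC and length removed, and between -0.18 and 0.71 with libraries left out. KRT8 stood at 0.27 with d16D only, and between -0.93 and 0.29. DNMT3A stood at -0.10 with median-of-ratios scaling, -0.0797 with d16V only and -0.11 with GC and length removed, and between -0.090 and 0.13. ACTL6B lay between -0.067 and 0.89. PTBP1 stood at 0.0062 with TPM. SLC2A1 stood at 0.047 with TPM, and between -0.33 and 0.037. With depth unknown, no counting error could be set on any value.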

Other observations

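LINC00678, passed over above for its generic name, showed the largest fall of all genes called, at -5.74 on the log2 scale. Of 780 tested entries that held microRNA hairpins on the sense strand, 166 rose, 105 fell and 509 were not called. Some of these entries are the hairpins themselves. Over all genes tested 17.0% rose and 17.4% fell. Zinc finger genes with ZNF names were 3.58% of the 2572 risers, 1.82% of the 2637 fallers and 2.93% of all genes tested. These shares are descriptions with no test.

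In the 250 bases before the start site, TATAAA (both strands) was found in 13.5% of 340 genes that rose by at least 1 in all d16 libraries, in 8.49% of 365 that fell and in 7.57% of all 10398 tested genes with a sequence. Over all called genes it was in 8.90% of 1686 risers and 7.16% of 1941 fallers. The SOX core ACAATGG was found in 4.12%, 2.47% and 2.13% (2.61% and 2.06% of called risers and fallers), and the octamer ATGCAAAT in 1.47%, 2.47% and 1.74% (1.66% and 1.85%). No site is implied by a match.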
